A study of Mus musculus with 2 samples.

Results

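The replication-dependent histone genes supply the bulk of new histone protein when DNA is copied. They were taken here as every protein-coding gene of GENCODE vM21 whose symbol begins with Hist1h, Hist2h, Hist3h or Hist4h. The rule found 67 genes among 21911 protein-coding genes and used no measured value. They encode linker histone H1 (6 genes) and the 4 core histones of the nucleosome, H2A (18 genes), H2B (18 genes), H3 (12 genes) and H4 (13 genes).

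Each core histone is encoded by many near-identical genes, which are read in S phase and lie in a few tight clusters. Their mRNAs carry no poly(A) tail and end in a conserved stem-loop that is bound by the stem-loop binding protein SLBP. The coactivator NPAT, which is switched on by cyclin E and CDK2, gathers at these clusters, and several promoter elements are known to be particular to 1 histone type, such as the site bound by HINFP in H4 genes and the octamer bound by OCT1 (encoded by Pou2f1) in H2B genes.

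Chromatin accessible to the nuclease DNase I was mapped by DNase-seq in 2 libraries made from thymus of male B6CASTF1/J mice aged 36 days. This strain is the first-generation hybrid of a B6 and a CAST parent, and no treatment is given in the labels. Both libraries belong to 1 group, as replicate 1 and replicate 2. Their tissue samples are listed separately under a common donor identifier, so how many mice were used is unclear. With 1 group of 2 libraries there was no contrast to test, and all comparisons below are descriptions.

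The library labelled replicate 1 went against its tissue label. Of 16 thymocyte marker genes, 3 had a promoter peak in that library and 15 in the library labelled replicate 2. Of 16 genes of the enzyme-secreting acinar cell of the pancreas, 16 and 4 had one, and of all protein-coding genes 63.1% and 60.1% did. The defining thymocyte genes Cd3d, Cd3e, Cd3g, Rag1 and Rag2 had none in the library labelled replicate 1. B cell markers were open at 2 of 6 genes in each library, myeloid markers at 1 and 2 of 6, and thymic epithelium markers at 3 and 2 of 6. Every value below is therefore given for each library on its own, and the part of the tissue difference in it was not tested. The deposited lists hold no read counts, so depth is unknown; the peak lists used held 85367 and 60644 peaks.

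The genes lie in 5 stretches of mm10. Hist1 on chromosome 13 holds 54 genes in separate segments, the first from 21715763 to 22043676 with 23 genes and the second from 23531050 to 23934851 with 31 genes. Hist2 lies on chromosome 3 from 96219865 to 96270132 and holds 10 genes in 50.3 kb. Hist3 lies on chromosome 11 from 58948920 to 58956830 and holds Hist3h2a and Hist3h2ba. Hist4h4 stands alone on chromosome 6, from 136801553 to 136804415.

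Promoter sequences are shown first for 1 gene of each type. It is the gene with the highest mean rank of promoter signal among those with a RefSeq entry. Hist1h3a, the highest H3 gene only through a peak that is also that of its neighbour Hist1h4a, has no entry. Each is the 250 bases before the start given by RefSeq on GRCm38.p6, on the gene's own strand, where 62 of the 67 genes have an entry. Capitals mark the letters of the motifs searched, on either strand. For Hist1h1c, encoding a linker histone (chr13:23738557-23738806, plus strand), they mark the H1 box AAACACA and a CCAAT box. For Hist2h2aa2 (chr3:96240375-96240624, minus strand) they mark GC boxes and a CCAAT box. For Hist2h2bb (chr3:96269450-96269699, plus strand) they mark CCAAT boxes and the octamer ATTTGCAT. For Hist1h3e (chr13:23562386-23562635, minus strand) they mark CCAAT boxes only. For Hist1h4c (chr13:23698459-23698708, minus strand) they mark CCAAT boxes and the core of the HINFP site, GGTCCG. Hist1h4c had the highest promoter signal of all 67 genes in both libraries. The RefSeq start can differ from the GENCODE 5′ end used for the counts below. For Hist2h2aa2 it lies upstream of that end, so a TATA box and a further CCAAT box counted there fall outside the stretch shown.
Hist1h1c: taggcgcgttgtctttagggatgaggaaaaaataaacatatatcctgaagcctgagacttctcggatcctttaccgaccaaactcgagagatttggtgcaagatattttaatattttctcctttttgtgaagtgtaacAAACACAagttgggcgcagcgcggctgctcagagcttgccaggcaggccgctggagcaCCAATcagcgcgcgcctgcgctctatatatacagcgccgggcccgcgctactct
Hist2h2aa2: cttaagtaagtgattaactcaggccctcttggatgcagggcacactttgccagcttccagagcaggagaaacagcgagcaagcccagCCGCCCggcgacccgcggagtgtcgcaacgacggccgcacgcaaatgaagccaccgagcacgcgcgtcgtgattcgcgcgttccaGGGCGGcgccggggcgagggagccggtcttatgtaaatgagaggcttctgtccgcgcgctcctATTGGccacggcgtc
Hist2h2bb: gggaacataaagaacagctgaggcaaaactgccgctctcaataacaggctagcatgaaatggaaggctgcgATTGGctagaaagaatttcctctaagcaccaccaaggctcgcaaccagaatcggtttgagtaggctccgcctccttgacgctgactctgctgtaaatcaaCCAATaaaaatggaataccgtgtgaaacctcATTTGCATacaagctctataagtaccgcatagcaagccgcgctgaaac
Hist1h3e: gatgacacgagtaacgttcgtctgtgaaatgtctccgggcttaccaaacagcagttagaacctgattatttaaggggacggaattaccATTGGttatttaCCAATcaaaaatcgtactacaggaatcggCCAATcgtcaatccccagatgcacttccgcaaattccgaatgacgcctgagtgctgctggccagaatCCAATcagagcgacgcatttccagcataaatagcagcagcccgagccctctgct
Hist1h4c: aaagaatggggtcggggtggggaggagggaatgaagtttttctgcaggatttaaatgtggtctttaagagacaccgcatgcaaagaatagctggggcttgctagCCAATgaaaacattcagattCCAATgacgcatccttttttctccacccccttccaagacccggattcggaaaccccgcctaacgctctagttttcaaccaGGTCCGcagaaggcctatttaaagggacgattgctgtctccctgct

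A second set is shown for contrast. Hist2h2ac (chr3:96220881-96221130, minus strand) belongs to a divergent H2A and H2B pair; its octamer appears as the reverse complement ATGCAAAT, beside a TATA box near the start. Hist1h2ba (chr13:23934157-23934406, minus strand) encodes a testis H2B and had no promoter peak although it carries a TATA box, CCAAT boxes and an octamer. Hist1h4n (chr13:21832198-21832447, minus strand) is the H4 gene with the weakest promoter peak, and it carries GGTCCG at the same distance from its start as Hist1h4c.
Hist2h2ac: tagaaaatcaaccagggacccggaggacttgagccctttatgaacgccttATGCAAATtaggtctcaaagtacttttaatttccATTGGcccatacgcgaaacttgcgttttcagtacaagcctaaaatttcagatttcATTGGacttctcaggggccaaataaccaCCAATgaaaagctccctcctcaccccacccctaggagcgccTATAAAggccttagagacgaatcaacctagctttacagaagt
Hist1h2ba: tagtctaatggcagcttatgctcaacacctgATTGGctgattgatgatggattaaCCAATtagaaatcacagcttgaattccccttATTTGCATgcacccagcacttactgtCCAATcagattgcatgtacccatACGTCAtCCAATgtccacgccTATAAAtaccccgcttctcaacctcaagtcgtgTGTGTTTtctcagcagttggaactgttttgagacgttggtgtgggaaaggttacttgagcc
Hist1h4n: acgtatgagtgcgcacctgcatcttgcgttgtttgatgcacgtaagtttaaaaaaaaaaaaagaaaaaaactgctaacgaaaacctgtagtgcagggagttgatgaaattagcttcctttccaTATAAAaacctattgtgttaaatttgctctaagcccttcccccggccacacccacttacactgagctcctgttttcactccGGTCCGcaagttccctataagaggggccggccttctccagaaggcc

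Most histone promoters were open. A promoter peak, meaning a peak within 1 kb of any annotated transcript start, was found at 58 of 67 genes in the library labelled replicate 1 and at 57 in that labelled replicate 2. The same held for 63.1% and 60.1% of all protein-coding genes. Both libraries had a peak at 57 of the 67 genes (85.1%), against 56.7% of all genes. Hist1h3d, an H3 gene, was the only 1 of the 67 with a peak in the library labelled replicate 1 alone, a state found at 6.4% of all genes; its signal was 1.29. No histone gene had a peak in the library labelled replicate 2 alone, a state found at 3.38% of all genes. At the thymocyte and acinar markers, 12 of 16 genes in each list had a peak in 1 library alone. With the longer deposited peak list Hist1h3d had a peak in both libraries; the added one had a signal of 1.06. Of the 57 genes open in both, the strongest peaks of the 2 libraries overlapped each other at 52, as they did at 11116 of the 12420 protein-coding genes open in both. The other 5, Hist1h1b, Hist1h2be, Hist2h2ab, Hist2h2ac and Hist2h2be, had their strongest peak at different places in the 2 libraries.

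Most of the strongest peaks sat at or near the starts. The strongest peak covered the annotated 5′ end itself at 37 of 58 genes in the library labelled replicate 1 and at 41 of 57 in that labelled replicate 2. It lay within 250 bp of that end at 51 genes in each. The same was not counted over all genes, so these counts do not set the histone genes apart. Since neighbours lie so close, several genes share a peak, and the strongest peaks of the open genes were 46 and 45 distinct peaks. In bulk chromatin, fewer cells with an open promoter and a less open promoter in each cell cannot be told apart.

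By type, the H4 genes were open at 13 of 13 in both libraries. H2A and H2B genes were open at 15 of 18 each, H3 genes at 10 of 12 and H1 genes at 4 of 6. By place, 19 of 23 genes of the first Hist1 segment, 26 of 31 of the second, 9 of 10 in Hist2, both in Hist3 and Hist4h4 were open in both libraries.

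The 9 genes without a promoter peak in either library were Hist1h2bq, Hist1h2ao, Hist1h2ap, Hist1h2br, Hist1h1d, Hist1h1t, Hist1h2ba, Hist1h2aa and Hist2h3c1. None held any interval with an FDR under the deposited limit in the library labelled replicate 1. In the other library only Hist1h1t did, with a lowest FDR of 0.0177, and the longer peak list gave it a peak there.

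Of these 9, Hist1h1t, Hist1h2aa and Hist1h2ba encode the testis forms of H1, H2A and H2B, which are known from male germ cells. Hist1h2aa and Hist1h2ba form a divergent pair whose starts lie 306 bp apart, with no peak and no footprint between them in either library.

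Another 5 of the 9 have a near-identical copy of their promoter elsewhere in the assembly. A search with the 300 bases from 250 bp before to 50 bp after the 5′ end found such a copy (at least 90% identity over 80% of the length) for 12 of the 67 genes, always another histone gene. The windows of Hist1h2bq and Hist1h2br were 100% identical, as were those of Hist1h2ao and Hist1h2ap. Hist2h3c1 and Hist2h3c2 were 99.7% identical; Hist2h3c1 had no peak, and Hist2h3c2 had a weak peak 454 bp and 462 bp from its start, with signals of 1.27 and 1.10. The 2 weakest H4 genes, Hist1h4m and Hist1h4n, are 99.7% identical to each other in this window. Not all copies were weak: Hist1h4k is 96.7% identical to Hist1h4j and had signals of 5.61 and 15.8, and Hist2h2aa2 is 99.7% identical to Hist2h2aa1 and had signals of 4.80 and 12.5. The sources used here do not say how reads that match several places were handled, and its part in these values was not tested. Among the 55 genes with no such copy, 50 were open in both libraries.

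The last of the 9 was Hist1h1d, encoding a linker histone, whose annotated 5′ end lies 1828 bp before its start codon. Measured within 1 kb of the start codon instead, it had a peak in both libraries, with signals of 4.10 and 7.40 and percentiles of 45.7 and 49.8. This makes 58 of 67 genes open in both libraries on that measure, and it changed the state of no other gene.

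**Figure D1:**
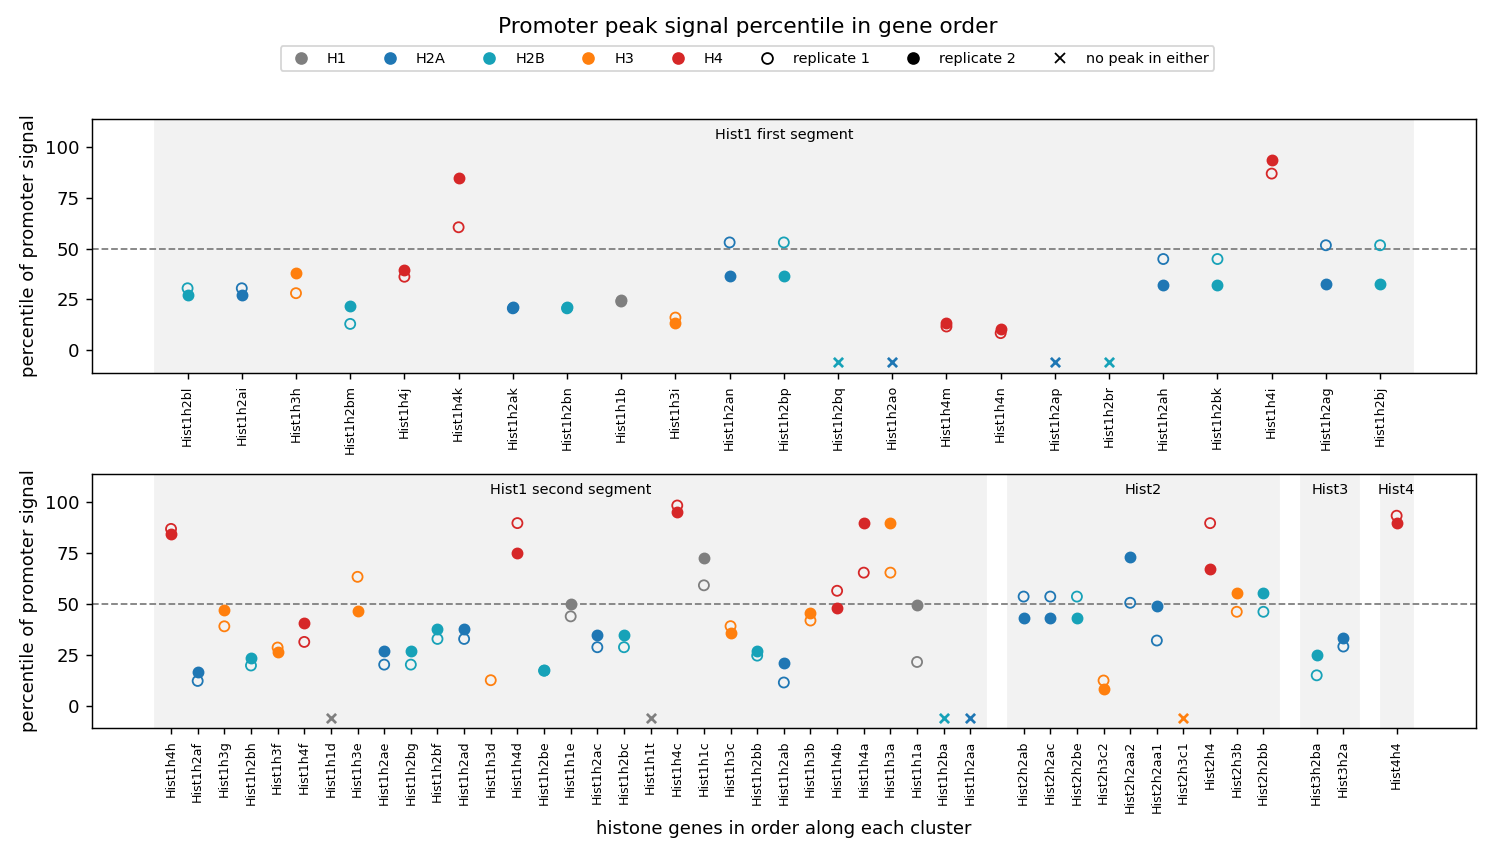
Percentile of the strongest promoter peak of each histone gene (vertical axis, 0 to 100, among all protein-coding genes with a promoter peak in that library) in gene order along each cluster (horizontal axis). Open circles are the library labelled replicate 1, filled circles replicate 2, crosses the 9 genes with no peak in either; H4 genes such as Hist1h4c (98.5 and 95.4) stand above neighbours of other types.

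Signal is compared as a percentile, the rank of a gene's strongest promoter peak among all protein-coding genes with a promoter peak in the same library, because the scaling of the signal between libraries is not stated. Over the histone genes that had a peak, the median was 34.5 in the library labelled replicate 1 and 36.4 in that labelled replicate 2. Over all genes it is the middle of the scale by construction. Most histone promoters were thus open with a signal under the genome's median: 20 of 58 and 13 of 57 were above it. These medians leave out the genes without a peak. With every protein-coding gene ranked and those without a peak set to 0, the histone medians were 56.1 and 60.0, since more histone genes than other genes had a peak.

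The H4 genes ranked higher. Their median percentile was 65.4 and 75.1, against 30.5 and 34.0 for the genes of the other 4 types. Of the 13 H4 genes, 6 and 7 lay above the 75th percentile. Of the others, none did in the library labelled replicate 1 and 1 did in that labelled replicate 2. That 1 was Hist1h3a, whose strongest peak lies 866 bp and 946 bp from its start and is also the peak of its neighbour Hist1h4a. With each peak given only to the nearest gene start, Hist1h3a had percentiles of 21.3 and 19.7, Hist2h2aa2 reached 75.3 in the library labelled replicate 2, and the H4 medians were 68.6 and 77.3.

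Hist1h4c had signals of 12.3 and 21.6 and percentiles of 98.5 and 95.4. Hist4h4, the only gene of its locus, had signals of 9.60 and 18.0 and percentiles of 93.4 and 90.04. Hist1h4i followed with signals of 8.37 and 20.2. High H4 promoters thus occurred in the lone locus and in both segments of Hist1.

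Hist1h4h had signals of 8.38 and 15.6. Hist1h4d had 8.90 and 13.0, and Hist2h4, the only H4 gene of Hist2, had 8.89 and 11.3. These 6 genes were the 6 above the 75th percentile in the library labelled replicate 1.

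Hist1h4a had signals of 6.01 and 17.8, Hist1h4k of 5.61 and 15.8 and Hist1h4b of 5.29 and 7.54. Hist1h4a and Hist1h4k ranked higher in the library labelled replicate 2, at percentiles of 89.6 and 84.8, than in the other, at 65.4 and 60.5. Hist1h4j had signals of 3.66 and 6.04, and Hist1h4f of 3.23 and 6.20. At the bottom, Hist1h4m had signals of 1.20 and 1.77 and Hist1h4n of 0.894 and 1.33, percentiles of 8.42 and 10.2. The spread within H4 therefore ran from near the bottom to near the top of all open promoters, and the 13 genes encode near-identical proteins.

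**Figure D2:**
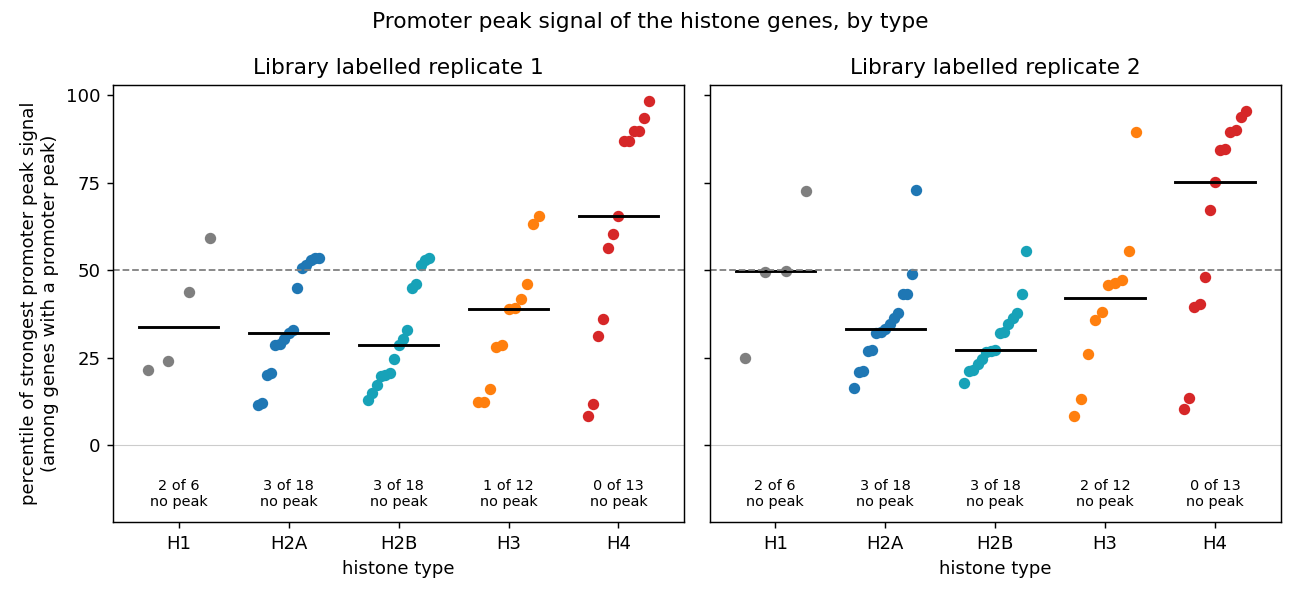
Percentile of promoter peak signal (vertical axis) by histone type (horizontal axis) in each library; each point is 1 gene, black bars are medians over genes with a peak, the dashed line is the 50th percentile, and counts of genes without a peak stand below. The H4 medians are 65.4 and 75.1, and those of the other types lie between 27.4 and 49.7.

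Among the H1 genes, which encode the linker histones that bind DNA between nucleosomes, Hist1h1c was highest with signals of 5.51 and 12.5 and percentiles of 59.2 and 72.7. Hist1h1e had 4.26 and 7.81, and Hist1h1b had 2.51 and 3.51. Hist1h1a had signals of 2.23 and 7.77, and its percentile was 21.5 in the library labelled replicate 1 against 49.6 in the other, the largest difference of any histone gene.

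The H2A genes had median percentiles of 32.0 and 33.3. By mean percentile Hist2h2aa2 was highest, with 50.6 and 73.0; in the library labelled replicate 1 others lay above it, up to 53.7. Hist2h2ab and Hist2h2ac had the same strongest peak within each library, with signals of 5.07 and 6.67, but it lay 896 bp from the start of Hist2h2ab in the library labelled replicate 1, and a different peak lay 720 bp from that of Hist2h2ac in the other. With each peak given only to the nearest gene start, Hist2h2ab had signals of 3.19 and 6.67 and Hist2h2ac of 5.07 and 6.06. By mean percentile Hist1h2af was lowest, with signals of 1.25 and 2.13 and percentiles of 12.1 and 16.3. In the library labelled replicate 1 Hist1h2ab was lower, at 11.4. Apart from Hist2h2aa2, the highest percentile of an H2A gene in either library was 53.7.

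The H2B genes were similar, with medians of 28.7 and 27.4. The highest by mean percentile were Hist2h2bb, with signals of 4.42 and 8.85, Hist2h2be, with 5.07 and 6.67, and Hist1h2bp, with 5.03 and 5.49. Hist2h2be had 4.02 and 4.58 with each peak given only to the nearest gene start. By mean percentile Hist1h2bm was lowest, with signals of 1.33 and 2.90 and percentiles of 13.0 and 21.6. In the library labelled replicate 2 Hist1h2bn, at 21.2, and Hist1h2be, at 17.8, were lower. Hist1h2be, whose start codon lies 35168 bp from its annotated 5′ end, had signals of 1.79 and 2.33, and of 3.32 and 3.91 within 1 kb of the start codon. H2A and H2B encode partners that form a dimer in the nucleosome, and many of these genes stand in divergent pairs, as described below.

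The H3 genes had medians of 39.0 and 42.0. Beside Hist1h3a, the highest by mean percentile were Hist1h3e, with signals of 5.84 and 7.20, and Hist2h3b, with 4.42 and 8.85. The peak of Hist2h3b lies 847 bp and 887 bp away and is also that of Hist2h2bb; given only peaks nearest to it, Hist2h3b had signals of 3.76 and 4.83. Hist2h3c2 was the lowest, at percentiles of 12.3 and 8.25.

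In the small clusters, Hist3h2a had signals of 3.04 and 4.97 and Hist3h2ba of 1.54 and 3.48. Hist2h2aa1, near-identical to Hist2h2aa2, had 3.29 and 7.66. The 9 open genes of Hist2 had median percentiles of 50.6 and 48.8, the first Hist1 segment 30.5 and 32.1 and the second 32.8 and 39.2. The Hist1 segments also differed in their H4 genes, whose median was 36.2 and 39.6 over the 5 of the first segment and 76.2 and 79.7 over the 6 of the second; the first holds the near-identical pairs Hist1h4j and Hist1h4k, and Hist1h4m and Hist1h4n.

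Rank order was largely kept between the libraries despite their different marker genes. Over the 57 genes open in both, Spearman's rho of the signals was 0.870, and over the 12420 protein-coding genes open in both it was 0.817. Neighbours that share a peak are not independent points; over the 45 distinct pairs of strongest peaks rho was 0.893. At 5 of the 57 genes the 2 signals belong to peaks at different places. The median difference in percentile, the library labelled replicate 2 minus the library labelled replicate 1, was 2.14 over the histone genes and -0.47 over all genes.

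Of the 57 genes, 37 moved by under 10 percentile points and 6 by over 20. The 5 largest gains in the library labelled replicate 2 were Hist1h1a (28.2), Hist1h4k (24.3), Hist1h4a and Hist1h3a with their common peak (24.2) and Hist2h2aa2 (22.4). The largest losses were Hist2h4 (-22.5), the pair Hist1h2ag and Hist1h2bj (-19.3), Hist1h3e (-16.9) and the pair Hist1h2an and Hist1h2bp (-16.7). Members of H4 appear on both sides. With 1 library of each kind, such a difference has no replicate check.

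**Figure D3:**
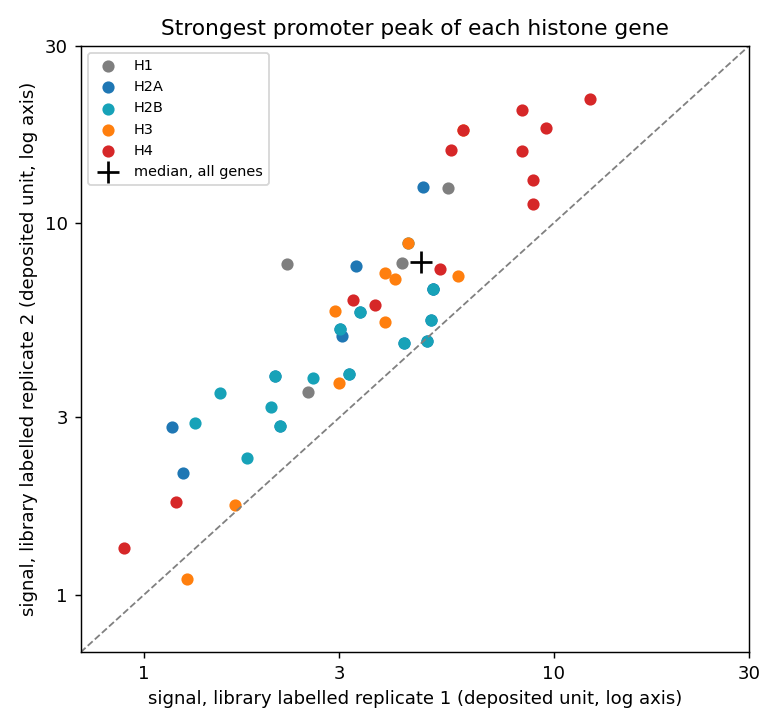
Signal of the strongest promoter peak of the 57 genes open in both libraries, the library labelled replicate 1 on the horizontal and replicate 2 on the vertical axis (log axes, deposited unit of unstated scale); genes that share a peak fall on 1 point, the dashed line marks equal values and the cross the median over all genes (4.75 and 7.84). H4 genes hold the upper right corner, and also points near the lower left (Hist1h4n, 0.894 and 1.33).

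H2A and H2B genes often stand back to back. There were 13 divergent pairs of histone genes, 12 of them of 1 H2A and 1 H2B gene, with starts 176 to 660 bp apart (median 268 bp). In both libraries 10 pairs had a promoter peak at both genes, and in 9 pairs both genes had the same strongest peak within each library. At such distances the windows of 1 kb on either side overlap over most of their length. A common strongest peak is thus largely given by the layout and does not show a shared promoter. Each of these 10 pairs also had a peak in the stretch between the starts. Hist1h2an and Hist1h2bp shared one with signals of 5.03 and 5.49. For Hist2h2ac and Hist2h2be the peak in the library labelled replicate 1, with a signal of 5.07, lay at the pair. In the library labelled replicate 2 their common strongest peak, with 6.67, lay 720 and 959 bp away at the start of Hist2h2ab. At the low end, Hist1h2ak and Hist1h2bn shared signals of 2.15 and 2.85. The 3 pairs without a peak were Hist1h2bq with Hist1h2ao, Hist1h2ap with Hist1h2br, and the testis pair. Paired H2A genes with a peak had median percentiles of 32.8 and 32.4, and unpaired ones 30.6 and 38.3. For H2B the medians were 31.7 and 32.2 over 10 paired genes and 17.2 and 24.8 over 5 unpaired ones. That 17.2 is the value of Hist1h2be, which had percentiles of 36.4 and 29.8 within 1 kb of its start codon.

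The promoter letters differ by type. Motifs were searched on both strands from 250 bp before to 50 bp after the annotated 5′ end. Windows of divergent pairs overlap, so their matches are shared. The counted windows of Hist1h2be and Hist1h1d lie far from their start codons, at 5′ ends 35168 and 1828 bp before them. The core GGTCCG of the HINFP site was in 12 of 13 H4 windows, 2 of 12 H3 windows, 1 of 18 H2B windows and no H2A or H1 window, against 9.58% of all protein-coding promoters of this length. The octamer ATTTGCAT was in 8 of 18 H2B and 7 of 18 H2A windows and in no other histone window, against 1.57% of all. In 5 divergent pairs both windows held it. The H1 box AAACACA was in 4 of 6 H1 windows and 5 others, against 6.40% of all.

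The CCAAT box, bound by NF-Y, was in all 18 H2A and all 18 H2B windows, 11 of 12 H3, 5 of 6 H1 and 4 of 13 H4 windows, against 39.0% of all. The letters TATAAA, the core of the TATA box, were in 37 of 67 (55.2%), against 12.6% of all and 7.15% of those open in both libraries. Not all are a gene's own. The only match of Hist1h2bn, Hist1h2bp, Hist1h2bk, Hist1h2bf, Hist1h2bc and Hist2h2be was that of the divergent H2A partner, on the other strand. That of Hist1h2ae was the match of Hist1h2bg. In Hist1h4m, Hist1h4n, Hist1h4i and Hist1h3i the only match lay at -128, -128, -137 and -174 bp from the annotated 5′ end. The GC box GGGCGG was in 10 of 13 H4 windows and 28 of all 67 (41.8%), against 43.0% of all and 61.7% of those open in both libraries. Some of its matches lay past the start codon and not in the promoter. All 5 matches in H2B windows were centred 28 bp past it. Those of the H2A genes Hist1h2ai, Hist1h2an, Hist1h2ah and Hist1h2ag were centred 23 bp past it. The CRE core TGACGT was in 18 of 67, against 8.63%, and the E2F site TTTGGCGC was in none, against 0.694%. Histone windows had a median GC content of 45.3%, against 55.0% over all genes. Among all promoters open in both libraries the shares were 14.0% for the HINFP core, 1.32% for the octamer, 4.37% for the H1 box, 38.6% for the CCAAT box, 11.9% for the CRE core and 1.05% for the E2F site. A match describes letters only.

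**Figure D4:**
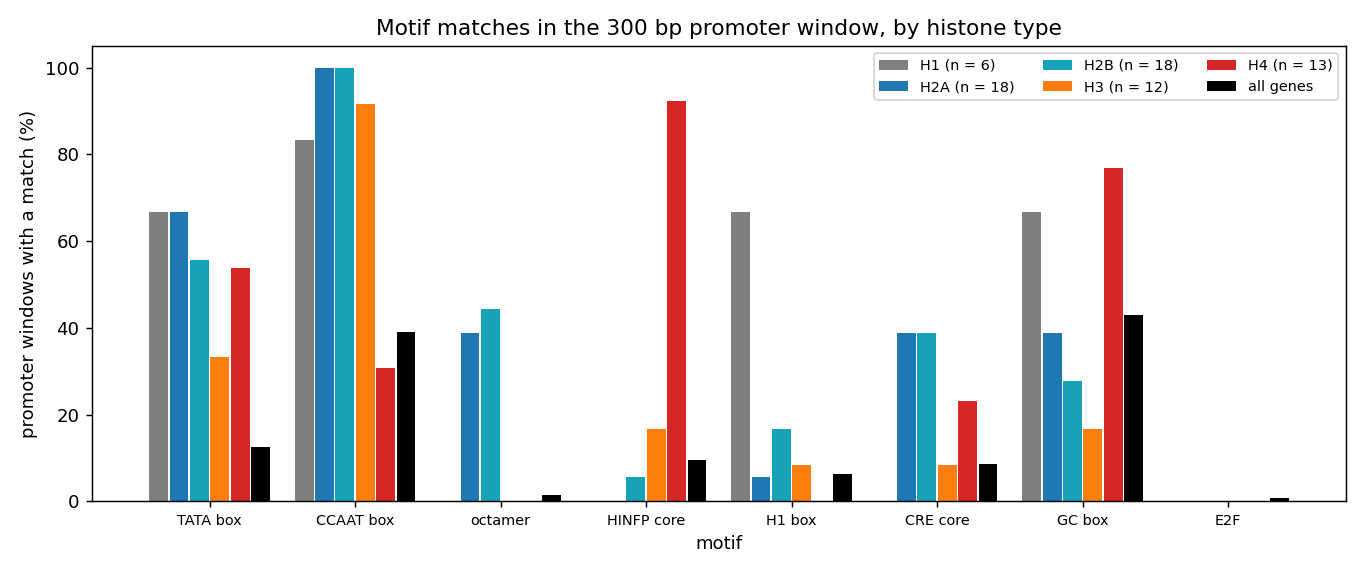
Share of promoter windows with a match to each motif (vertical axis, percent) for each histone type and for all protein-coding genes (black bars). The HINFP core is found in 92.3% of H4 windows against 9.58% of all, the CCAAT box in 30.8% of H4 windows against 100% of H2A and H2B windows.

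Footprints are short stretches inside open chromatin that DNase I cut less often, as under a bound protein. A footprint lay in the promoter window in both libraries at 52 of 67 histone genes (77.6%), against 44.3% of all protein-coding genes; all 13 H4 genes were among them. Open histone genes had a median of 4 footprints in each library, as did all open genes. Footprints filled 18.7% and 20.6% of the bases of the open histone windows, against 19.5% and 21.1% over all open genes. By type the share ran from 12.0% and 12.4% in H3 to 23.8% and 29.1% in H4.

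Footprints of the H4 genes were densest a short way before the start codon. In the bin 61 to 70 bp before the start codon, 74.6% of H4 bases lay in a footprint in the library labelled replicate 1 and 87.7% in that labelled replicate 2. A lower H4 maximum lay 131 to 140 and 121 to 130 bp before the start codon, with 46.2% and 54.6% in the library labelled replicate 1, against 40.8% and 40.0% in the other. The H2A genes peaked 71 to 80 bp before the start codon, at 44.7% and 48.0%. The 4 open H1 genes peaked 131 to 140 bp before it, at 65.0% and 62.5%. The H3 genes peaked 51 to 60 bp before it in the library labelled replicate 1, at 41.0%, and 41 to 50 bp before it in the other, at 39.0%. For H2B the highest bins lay past the start codon and differed, 0 to 9 bp at 47.3% and 90 to 99 bp at 55.3%. Beyond 250 bp before the start codon the H4 average was 3.49% and 4.51%.

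**Figure D5:**
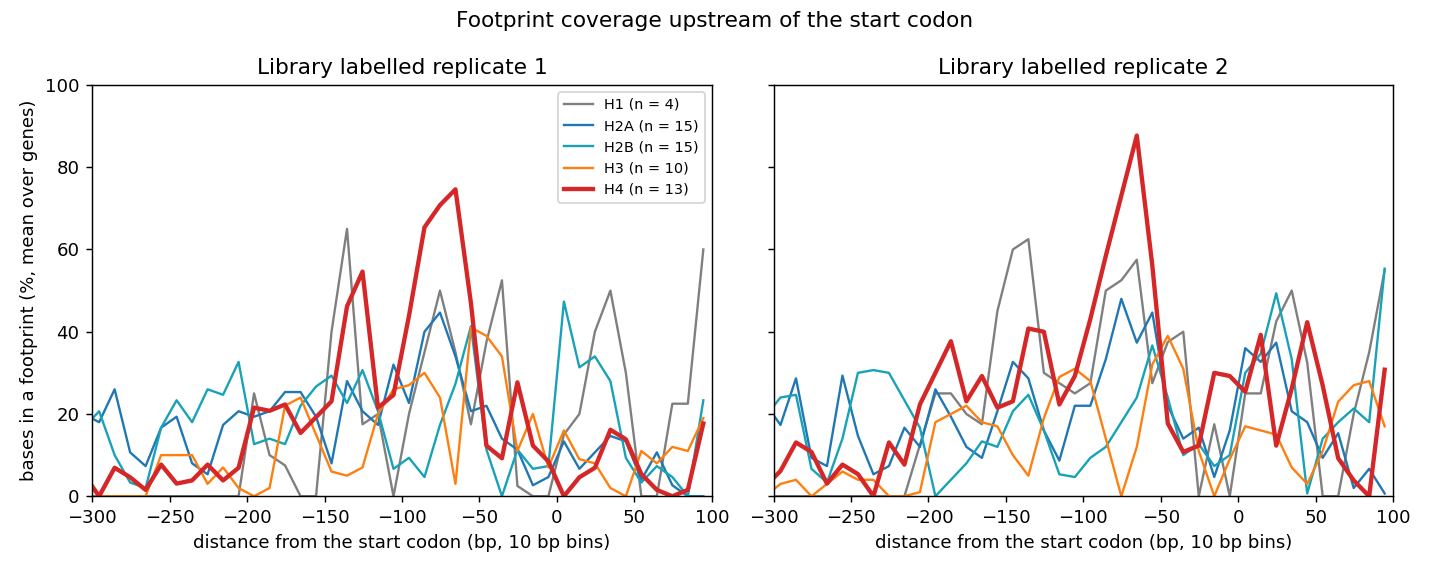
Share of bases inside a footprint (vertical axis, percent, mean over the genes of a type open in both libraries) by distance from the start codon (horizontal axis, bp, bins of 10 bp), 1 line per histone type. The H4 line reaches 74.6% and 87.7% in the bin 61 to 70 bp before the start codon.

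The HINFP core lay close to the densest bin. All 12 matches in H4 windows were on the gene's own strand, with centres 52 to 82 bp before the start codon (median 77 bp). Of these, 10 lay 72 to 82 bp before it, where the bins 71 to 80 and 81 to 90 bp had 70.8% and 65.4% of H4 bases in a footprint in the library labelled replicate 1, against 73.1% and 58.5% in the other; Hist1h4f alone lay in the densest bin, and Hist1h4c lay at 52 bp. The centre lay inside a footprint at 9 of 12 in the library labelled replicate 1 and at 11 of 12 in that labelled replicate 2. The 3 matches in H3 and H2B windows were in no footprint in either library.

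In Hist1h4c a footprint of 44 bp, from 64 to 21 bp before the RefSeq start, covered GGTCCG in the library labelled replicate 1. The library labelled replicate 2 had a footprint of 47 bp there, from 65 to 19 bp. In Hist1h4n the same letters, 46 to 41 bp before its start, were in no footprint in either library; its nearest footprints were 7 to 10 bp wide in the library labelled replicate 1. Hist1h4m and Hist1h4f had the core in a footprint in the library labelled replicate 2 alone. These 3 genes also had the 3 lowest H4 signals in the library labelled replicate 1, and the part of the low signal in this was not tested.

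Hist1h4a was the H4 gene without GGTCCG. It held the CRE core TGACGT at 2 positions, both in a footprint in both libraries. Hist1h4h and Hist1h4i held it at 1 position each, also in footprints in both libraries, so all 4 positions in H4 genes were covered. As background, footprints shared by both libraries covered 18.4% of the bases of open H4 windows, 11.4% in H2A, 9.18% in H2B and 5.93% in H3. Positions were counted per gene, so a site in the overlapping windows of a divergent pair counts for each gene. Of 9 such positions in open genes of other types, 3 were covered in both libraries. They lay in Hist3h2a and at a single site shared by Hist1h2ag and Hist1h2bj. Hist1h2bl and Hist1h2ai also share a site, as do Hist1h2bf and Hist1h2ad, and these were not covered.

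Footprints shared by both libraries covered 11.4% of the bases of open H2A windows, 9.18% in H2B, 18.4% in H4 and 11.4% over all open histone windows, which is the background for the next counts. Matches are counted per gene, so a site in the overlapping windows of a divergent pair counts for each gene, and the matches are not independent. None of the octamer's 13 matches in open H2A and H2B windows had its centre in a footprint in both libraries. In 1 library only 3 did, in Hist3h2a and at a single site shared by Hist1h2ac and Hist1h2bc. None of the 8 matches to the H1 box in open windows did in either library. CCAAT boxes were covered in both libraries at 16 of 127 matches, near that background, and TATA boxes at 10 of 34. Among the covered TATA boxes, Hist1h2ac and Hist1h2bc share a site, as do Hist2h2ac and Hist2h2be. In Hist2h2ac the TATA box, 42 to 37 bp before the RefSeq start, lay in footprints of 29 and 24 bp, while the octamer at 200 to 193 bp lay in none. In Hist1h1c the H1 box, 112 to 106 bp before the start, had its centre in no footprint.

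The 3′ end carries the mark of this gene class. The stem-loop pattern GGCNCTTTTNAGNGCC, where N is any base, was found on the sense strand of 61 of 67 genes, up to 200 bp past the annotated end. Its letters split by type. All 10 matches in H4 genes began and ended with GGCC, and those read in 51 genes of other types began with GGCT and ended with AGCC, taking the last match in Hist1h2bn, which held 2. The forms are shown with the stem in capitals and the loop in lower case, as DNA. The first was in 40 genes, the next in 9 and the rarest in 2, and the H4 forms were in 8 and 2 genes.
stem-loop of H1, H2A, H2B and H3, common form: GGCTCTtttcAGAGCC
stem-loop of H1, H2A, H2B and H3, second form: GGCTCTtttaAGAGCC
stem-loop of H2A and H2B, rarest form: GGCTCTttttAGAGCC
stem-loop of H4, common form: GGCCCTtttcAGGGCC
stem-loop of H4, second form: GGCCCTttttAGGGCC

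All 9 genes without a promoter peak in either library carried the stem-loop too, among them the testis genes Hist1h1t, Hist1h2aa and Hist1h2ba. The 6 genes without a match were Hist1h4j, Hist1h2an, Hist1h3g, Hist1h4b, Hist1h4a and Hist2h2be, and all 6 had a promoter peak in both libraries.

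The clusters hold other genes as well. Of the peaks within the cluster spans, 88 of 144 in the library labelled replicate 1 and 89 of 135 in that labelled replicate 2 were promoter peaks of histone genes. The first Hist1 segment also holds 31 tRNA genes, and 22 and 23 peaks lay at tRNA genes alone. Of 9 other protein-coding genes inside the clusters, Zfp184, Pom121l2, Prss16 and Hfe were open in both libraries, Slc17a4 in the library labelled replicate 1 alone, and Trim38, Slc17a1, Slc17a2 and Slc17a3 in neither. Of the genes inside these spans, 57 of 67 histone genes and 4 of 9 others were thus open in both libraries, against 56.7% of all protein-coding genes.

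The listed genes that act on this class were all open. Of 20 genes for histone gene transcription and mRNA processing, 20 had a promoter peak in both libraries, against 56.7% of all protein-coding genes. Their median percentiles were 73.0 and 75.1. Nfya, encoding a subunit of the CCAAT-binding NF-Y, had percentiles of 97.6 and 99.3, Ccne1, encoding cyclin E1, 95.2 and 99.5, and Lsm11, of the U7 particle that cuts histone mRNA, 95.3 and 94.0. Npat had 80.9 and 94.2, Hinfp 84.4 and 78.8, Pou2f1 78.4 and 87.3 and Slbp 65.4 and 68.0. These medians lie near those of the H4 genes and above those of the other histone types.

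Of 22 DNA replication genes, which work in the same phase of the cell cycle, all 22 were open in both libraries, against 56.7% of all protein-coding genes. Their medians were 75.3 and 72.4. Chaf1b, of the complex that loads new H3 and H4 behind the fork, had 97.3 and 95.5. Of 14 histone variant genes outside the clusters, whose proteins can be made throughout the cell cycle, 11 were open in both, also against 56.7%. The medians of these variant genes were 65.5 and 73.5. H2afz, encoding H2A.Z, had 90.7 and 90.4, the highest in the library labelled replicate 1, and H2afj had 72.1 and 95.2, the latter highest in the other library. The 3 without a peak, Hils1, H1fnt and H1foo, encode linker histones of the male and female germ line.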

How the data were processed

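DNase-seq was analysed in 2 libraries of 1 group. The assembly is mm10 per the labels. Not given in the sources used here are the aligner, the callers with their thresholds and how the signal was scaled. The deposited peak lists give in column 7 a signal per peak. The deposited FDR tables give a p-value-like false discovery rate per interval. The deposited footprint lists carry a score that equals 0.01 throughout and ranked nothing. No list holds read counts, so counting intervals cannot be given. The shorter of the 2 deposited peak lists of each library was the main one, and the longer list an alternative.

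Genes were the 21911 protein-coding symbols of GENCODE vM21, and sequences came from RefSeq GRCm38.p6. A promoter peak overlapped 1 kb on either side of any transcript start. A gene's signal is that of its strongest promoter peak, and percentiles are mid-ranks within a library. Motifs and footprints were counted from 250 bp before to 50 bp after the gene's 5′ end. A motif counted as covered when its centre base lay in a footprint. Footprint profiles were anchored at the start codon, because the annotated 5′ end of 11 of the 67 genes is the start codon itself. Copies were sought with blastn 2.17.0, intervals were joined with bedtools 2.31.1, and the rest ran in Python 3.11.15 with pandas 2.3.3 and pysam 0.24.0. Peak assignment and percentiles were tested on simulated peaks at genes far from the gene start before them. Peaks shared by close neighbours, as in these clusters, were not covered by that test.

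The members and lists were chosen with earlier results of these data known. Every member may be named. Given in full are, per type, the 3 highest and the lowest by mean percentile, all members without a peak or with a peak in 1 library, the 5 largest percentile differences each way and all members of Hist2, Hist3 and Hist4. No test over members was made.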

Additional observations from a re-analysis of the deposited data

How the results depend on the processing

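Counts of open genes stayed within 1.5 times under every setting run. The count open in both libraries ran from 50 of the 55 genes without a near-identical copy to 65 of 67 with a window of 2500 bp, where peaks of neighbours also count; with 1 library left out it was 57 to 58. The count with a footprint in the promoter window ran from 45 with the window cut to 100 bp before the start, and was 52 to 56 with 1 library left out. The H4 median stayed above that of the other types in both libraries under every setting run. The median percentile over all histone genes moved with the scale. For the library labelled replicate 1 and the library labelled replicate 2 it was 38.5 and 40.9 with the longer peak list, 40.2 and 39.4 at the start codon, 83.3 and 81.9 among all peaks, and 32.4 and 37.9 with 1 value per distinct peak. It was 56.1 and 60.0 with genes without a peak set to 0. It was 32.6 in the library labelled replicate 1 with a 500 bp window and 39.0 there without near-identical copies. The median percentile difference between the libraries changed sign among all peaks, to -0.61; the cause was not tested. Settings at the start codon, with peakless genes at 0 and without copies, those on the medians of H4 and of the other types, and each peak given only to the nearest start for medians and single genes were chosen after the data were seen. Hist1h3d had a peak in both libraries with the longer list or the 2500 bp window. No paired analysis was possible because there is 1 group and no contrast. Read depth limits which weak promoters show a peak or a footprint, and it is unknown here.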
